A study of Mus musculus with 6 samples.

Results

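Adrenergic receptors are the cell-surface receptors for noradrenaline and adrenaline. Transcripts of 6 of their genes, the alpha-1 genes Adra1a, Adra1b and Adra1d, the alpha-2 genes Adra2a and Adra2c and the beta-1 gene Adrb1, were followed in bulk RNA sequencing of the mouse paraventricular thalamus. They were taken by gene symbol and are 6 of the 21959 genes in the deposited table. The CCI group was wild-type mice with chronic constriction injury, a model of lasting neuropathic pain made by placing loose ties around a nerve, with 3 libraries (replicates 1, 2 and 3). The controls were wild-type mice with no treatment, with 3 libraries (replicates 4, 5 and 6). The series title names astrocytes of this nucleus in chronic neuropathic pain as the subject, and 30 mice are stated for either group. The labels give no age, sex or time after injury and name the tissue only as brain. How many mice went into a library is not stated, so the p-values rest on the spread of these 6 libraries, part of which may be technical.

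Noradrenaline reaches the thalamus from the locus coeruleus and other brainstem cell groups, whose fibres are dense in the midline nuclei. Alpha-1 receptors couple to Gq, which activates phospholipase C and releases stored calcium. Alpha-2 receptors couple to Gi and Go, which lower cyclic AMP and open potassium channels, and beta-1 receptors couple to Gs, which raises cyclic AMP. In pain control the alpha-2A receptor, the product of Adra2a, is known as the target of clonidine and dexmedetomidine, and Adra1b is known for strong expression in the thalamus.

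Of the 6 genes, Adra2a was 2.70-fold higher in CCI than in control, and Adra1b was at 0.597 of its control level. Adra1d, at very low counts, was also higher in CCI, while Adra1a, Adra2c and Adrb1 did not pass the test. Levels are given as CPM, counts scaled to library totals after TMM, which adjusts totals for differences in RNA composition. Genes were tested with edgeR's quasi-likelihood test on the whole table, with Benjamini-Hochberg adjusted p-values and a threshold of 0.05. Adra1a, Adra1b, Adra2a and Adrb1 had enough counts to be tested, and Adra1d and Adra2c were under the filter on low counts. Of the 4 tested genes 1 rose, where 27.0% of all 14259 tested genes rose, and 1 fell, where 25.3% of all tested genes fell. The median log2 fold change of the 4 was 0.09, against 0.06 over all tested genes. The share of these genes called was thus near that of all genes.

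The libraries held 7989139 to 10529886 counts in CCI and 12337448 to 15438268 in control. The TMM factor of a CCI library was 1.21 to 1.25, against 0.69 to 0.90 for a control library, and without these factors, on library totals alone, the median fold change of all genes lay 0.59 (log2) higher. Control replicate 5 had the lowest factor of the 6 libraries. In bulk tissue, fewer cells of a type and less RNA per cell cannot be told apart.

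**Figure D1:**
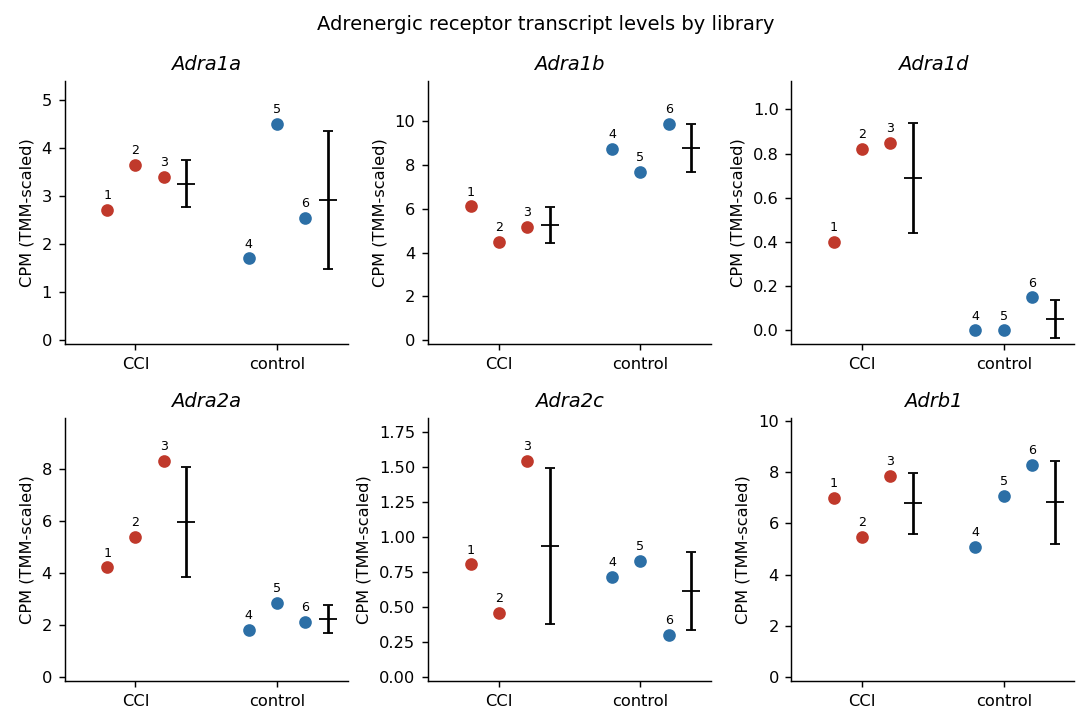
Level of each adrenergic receptor gene in CPM on TMM-scaled totals (vertical axes, which differ between panels and start at about 0), by group. Points are single libraries with their replicate numbers, and bars give the mean and SD of the 3 libraries. Adra2a and Adra1d lie higher in every CCI library than in any control library and Adra1b lies lower, and in the other panels the groups overlap. Of all tested genes 33.6% lie higher and 29.4% lower in this way.

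The alpha-1 genes went different ways. Adra1b (ENSMUSG00000050541, chromosome 11, 43665433 to 43792037, minus strand, GRCm39) encodes the alpha-1B receptor. It had 61, 49 and 67 counts in CCI, against 98, 65 and 132 counts in control. Scaled, these were 6.11, 4.47 and 5.16 CPM in CCI and 8.75, 7.68 and 9.88 CPM in control. All 3 CCI libraries lay below all 3 control libraries, as in 29.4% of all tested genes. Adra1b averaged 5.25 ± 0.823 CPM in CCI and 8.77 ± 1.10 CPM in control (SD, n = 3 each), and fell by 0.74 ± 0.24 on the log2 scale (SE, edgeR adjusted p = 0.0279). In the deposited FPKM, counts per kilobase of gene length and scaled to the library total, the groups overlapped, with 2.26, 1.60 and 1.88 in CCI and 2.33, 1.56 and 2.53 in control. The call was lost on that scale (limma on log2(FPKM + 1), -0.10, adjusted p = 0.637), with upper quartile scaling (-0.53, adjusted p = 0.0969), on library totals alone (-0.16, adjusted p = 0.643) and without any one library other than control replicate 5 (adjusted p 0.0503 to 0.103).

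Adra1a (ENSMUSG00000045875, chromosome 14, 66872700 to 67008617, plus strand) encodes the alpha-1A receptor. It had 2.71, 3.65 and 3.39 CPM in CCI and 1.70, 4.49 and 2.54 CPM in control. The CCI values lay inside the control range, whose highest value was that of control replicate 5. The log2 fold change was 0.18 ± 0.39 (adjusted p = 0.710), and it was 0.58 without control replicate 5 and -0.13 without control replicate 4, neither of which passed. In FPKM the groups separated, at 0.387, 0.506 and 0.479 in CCI and 0.175, 0.353 and 0.252 in control. The difference did not pass there either (limma on log2(FPKM + 1), 0.21, adjusted p = 0.0628). On that scale, which lacks the TMM factors, 83.2% of the calls over all genes were higher in CCI. The share of all genes whose groups separate in FPKM was not counted.

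Adra1d (ENSMUSG00000027335, chromosome 2, 131387770 to 131404203, minus strand), the gene of the alpha-1D receptor, was the scarcest of the 6 in control. It had 4, 9 and 11 counts in CCI and 0, 0 and 2 counts in control. Every CCI library held more than any control library, also in CPM. In CPM 33.6% of all tested genes, which do not include Adra1d, separated in that direction. The sums were 24 counts in CCI and 2 in control, which gives a ratio of 11.7 after scaling for library size. Its exact binomial 95% bounds, for counting error alone, were 2.90 and 102. With no filter on low counts Adra1d passed edgeR's test (adjusted p = 0.0199), where 3829 of 17958 genes rose. It also passed the DESeq2 Wald test (adjusted p = 0.0273), where 3710 of 17958 genes rose. Only 26 counts in all stand behind this difference.

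Of the alpha-2 genes, Adra2a was higher in CCI and Adra2c did not pass. Adra2a (ENSMUSG00000033717, chromosome 19, 54032582 to 54037413, plus strand) encodes the alpha-2A receptor, an autoreceptor on noradrenergic fibres that is also made by the neurons they contact. It had 42, 59 and 108 counts in CCI, against 20, 24 and 28 counts in control, although the control libraries were sequenced more deeply. Scaled, these were 4.21, 5.39 and 8.32 CPM in CCI and 1.79, 2.84 and 2.10 CPM in control. The groups did not overlap, with CCI higher, as in 33.6% of all tested genes, and CCI replicate 3 was the highest. The means were 5.97 ± 2.12 CPM in CCI and 2.24 ± 0.541 CPM in control (SD, n = 3 each), a log2 fold change of 1.43 ± 0.35 (SE, edgeR adjusted p = 0.00903).

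The rise of Adra2a passed without each library in turn, at log2 fold changes of 1.11 (without CCI replicate 3, adjusted p = 0.0382) to 1.62 (without CCI replicate 1), and under the other scalings and tests. On log2(FPKM + 1) it was 0.86 and on library totals alone 2.04. After offsets for gene length and GC content it was 0.79 and did not pass (adjusted p = 0.129), and with mean expression also in the offsets it was 0.52 (adjusted p = 0.324). The table gives Adra2a a length of 4832 bp, and the GC content of its longest GENCODE transcript is 58.6%. The Gad1 transcript, of the GABA-synthesising enzyme, was also highest in CCI replicate 3, at 47.2, 89.8 and 166 CPM in CCI and 33.4, 28.2 and 27.7 CPM in control. The cortical excitatory neuron gene Neurod6 was also highest there, at 4.21, 3.47 and 57.6 CPM in CCI and 2.50, 2.48 and 0.748 CPM in control, as were Fezf2 and Tbr1 of the same list. Other genes of that list, such as Prox1 and C1ql2, were lowest there among the CCI libraries. All these genes were singled out after their values were seen. Whether RNA from GABAergic or cortical neurons had a part in the Adra2a difference was not tested.

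Adra2c (ENSMUSG00000045318, chromosome 5, 35435663 to 35439107, plus strand) encodes the alpha-2C receptor, best known in the striatum. It had 8, 5 and 20 counts in CCI and 8, 7 and 4 counts in control. CCI replicate 3 was again the highest and the groups overlapped. The ratio of summed counts, scaled likewise, was 1.69 (exact 95% bounds 0.934 and 3.15), and 0.11 on the log2 scale without CCI replicate 3, against 0.76 with all libraries. No difference was detectable at this depth (edgeR with no filter, adjusted p = 0.455).

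Adrb1 (ENSMUSG00000035283, chromosome 19, 56710631 to 56721545, plus strand) encodes the beta-1 receptor and was the only beta gene of the 6. It had 7.02, 5.48 and 7.86 CPM in CCI, against 5.09, 7.09 and 8.30 CPM in control. The CCI values lay inside the control range, and the means were 6.78 ± 1.21 CPM in CCI and 6.83 ± 1.63 CPM in control (SD, n = 3 each). The log2 fold change was -0.01 ± 0.27 (adjusted p = 0.979). It was 0.59 on library totals alone (adjusted p = 0.111) and -0.52 after offsets for length, GC content and mean expression (adjusted p = 0.213), so its sign differed between scalings.

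**Figure D2:**
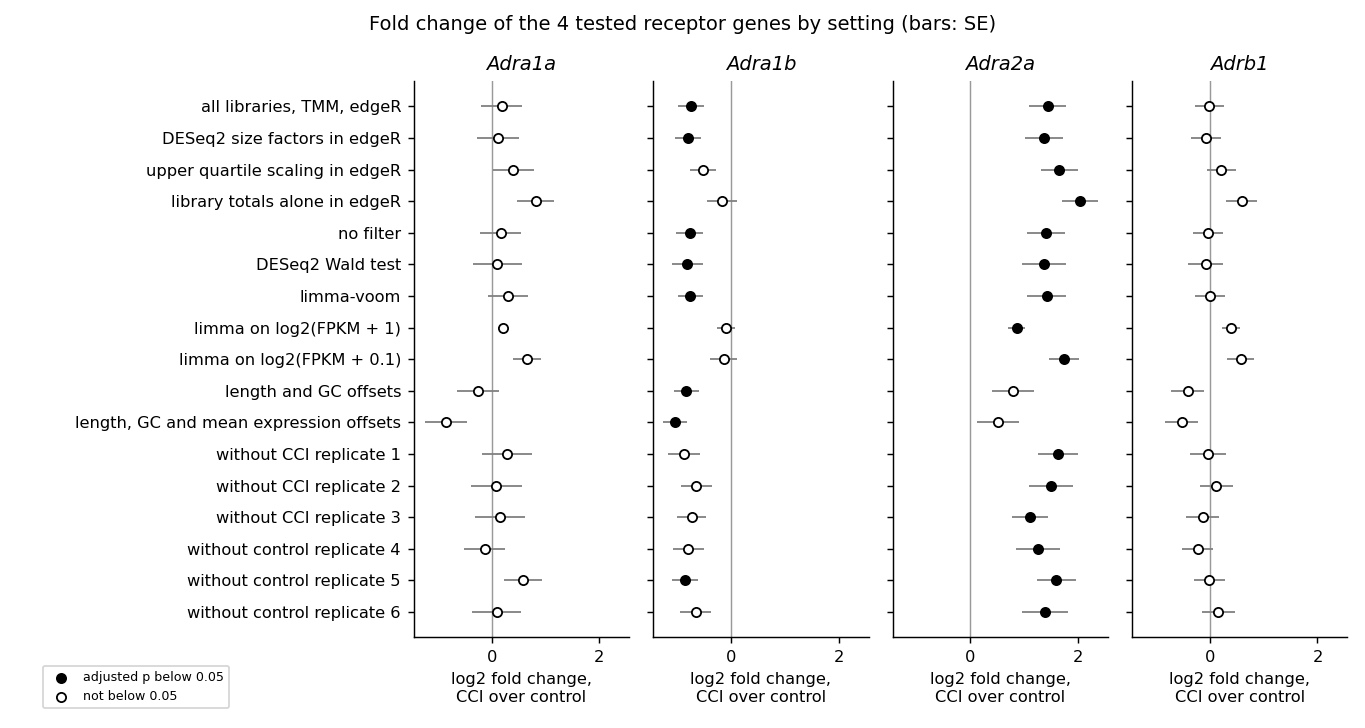
Log2 fold change, CCI over control, with its SE (horizontal axis) for the 4 tested genes under the main analysis and 16 alternatives (vertical axis). Filled points passed an adjusted p of 0.05. Adra2a lies at 0.52 to 2.04 and is filled in 14 of the alternatives, Adra1b lies at -1.04 to -0.10 and is filled in 7, and Adra1a and Adrb1 cross 0.

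The promoters of the 2 genes that passed are shown because these genes moved in opposite directions. The windows come from RefSeq on GRCm38.p6, a build other than that of the table, and run from 250 bases before to 50 bases after an annotated start, 5′ to 3′ on the strand of the gene. Of the 6 genes 4 had a window. Adra2a has 1 start, at chr19:54045009-54045308 (plus strand), and Adra1b has 2, at chr11:43836440-43836739 (start a) and chr11:43901188-43901487 (start b, both minus strand). Capitals mark matches on either strand to the element TATAAA that positions the start of transcription, to the E-box motif CACGTG, to the Sp1-binding motif GGGCGG or to the cyclic AMP response element TGACGTCA.
Adra2a: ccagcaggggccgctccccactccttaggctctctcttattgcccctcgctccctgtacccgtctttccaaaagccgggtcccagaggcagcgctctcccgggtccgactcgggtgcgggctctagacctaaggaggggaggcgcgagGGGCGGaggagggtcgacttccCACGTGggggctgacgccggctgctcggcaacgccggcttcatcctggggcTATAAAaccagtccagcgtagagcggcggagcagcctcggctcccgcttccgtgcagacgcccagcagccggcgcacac
Adra1b start a: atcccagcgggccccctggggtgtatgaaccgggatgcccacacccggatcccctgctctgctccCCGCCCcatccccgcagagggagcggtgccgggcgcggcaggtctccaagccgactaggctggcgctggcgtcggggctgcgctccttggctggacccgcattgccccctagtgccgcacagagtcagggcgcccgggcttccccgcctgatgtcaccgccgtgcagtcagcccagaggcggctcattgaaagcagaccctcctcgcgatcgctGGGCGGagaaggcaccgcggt
Adra1b start b: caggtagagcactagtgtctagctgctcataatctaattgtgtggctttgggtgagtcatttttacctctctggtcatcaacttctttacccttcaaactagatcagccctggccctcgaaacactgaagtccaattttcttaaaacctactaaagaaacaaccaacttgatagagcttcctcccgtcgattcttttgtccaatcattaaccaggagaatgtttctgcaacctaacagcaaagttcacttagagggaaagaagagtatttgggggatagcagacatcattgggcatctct
The Adra2a window holds 1 TATAAA, whose first base is 29 bases before the start, 1 CACGTG and 1 GGGCGG. Start a of Adra1b holds 2 GGGCGG matches, 1 on each strand, and start b holds none of the 4. TGACGTCA is in none of these 3 windows. Of 32851 mouse promoter windows of the same length 13.6% hold TATAAA, 7.15% CACGTG, 35.7% GGGCGG and 1.79% TGACGTCA. The GC content is 68.7% for Adra2a, 71.3% for Adra1b start a and 42.3% for start b. A match describes letters only and is no measure of binding.

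Levels of different genes were compared per length, in the deposited FPKM, within each library. A share or ratio within a library does not change with the scaling between libraries. In CCI the order of the means was Adrb1 (2.47 ± 0.464 FPKM), Adra1b (1.91 ± 0.330), Adra2a (1.52 ± 0.538), Adra1a (0.457 ± 0.0622), Adra1d (0.446 ± 0.158) and Adra2c (0.334 ± 0.199). In control it was Adra1b (2.14 ± 0.512), Adrb1 (1.64 ± 0.424), Adra2a (0.370 ± 0.0354), Adra1a (0.260 ± 0.0893), Adra2c (0.142 ± 0.0590) and Adra1d (0.0227 ± 0.0394; SD, n = 3 for each). Adrb1 ranked first in all 3 CCI libraries and Adra1b first in all 3 control libraries. In CCI, Adra1b and Adra2a overlapped and changed places in replicate 3, and the 3 scarcest genes overlapped one another. Adrb1 and Adra1b also overlapped in range in CCI. In control, Adra1a overlapped with Adra2a above it and with Adra2c below it, and Adrb1 and Adra1b overlapped in range although Adra1b was the higher in each library.

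Of the summed FPKM of the 6 genes, Adra1b made up 32.8%, 26.2% and 22.3% in the CCI libraries and 53.2%, 39.8% and 46.6% in the control libraries. Adra2a made up 15.8%, 22.1% and 25.1% in CCI, against 7.60%, 10.3% and 6.92% in control. Within this sum the groups did not overlap for either gene. How often groups separate in such shares over other sets of genes was not counted. Adrb1 took 34.6% ± 2.83 in CCI and 35.6% ± 4.23 in control (SD, n = 3 each). Adra1d took 6.31% ± 2.38 in CCI and 0.419% ± 0.726 in control. These shares depend on the genes in the sum. With Adra2b, the abundant alpha-2B gene, added to it after the data were seen, Adra1b took 9.82%, 7.18% and 8.96% in CCI and 7.81%, 8.28% and 6.49% in control, so that its groups overlapped and its mean was higher in CCI. Adrb1 then took 11.3%, 8.80% and 13.7% in CCI and 4.54%, 7.64% and 5.46% in control, and Adra2a took 4.73%, 6.05% and 10.1% in CCI and 1.11%, 2.14% and 0.964% in control, both without overlap and higher in CCI.

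Ratios between 2 members were tested in the 10 pairs of the 5 genes that had a count in every library. Adra1b was 1.30 times Adra2a in CCI and 5.67 times in control, as geometric means of the ratio of FPKM. On the log2 scale this was 0.38 ± 0.62 in CCI and 2.50 ± 0.48 in control, and the groups did not overlap. The ratio of Adra2a to Adrb1 was 0.598 in CCI and 0.230 in control, and that of Adra1b to Adrb1 was 0.776 in CCI and 1.30 in control, also without overlap. The ratio of Adra1a to Adra2a was 0.311 in CCI and 0.677 in control, the remaining pair without overlap. For these 4 pairs the exact two-sided permutation p was 0.1 (adjusted p = 0.25 over the 10 pairs), the smallest that 3 against 3 libraries allow. In the other 6 pairs the groups overlapped. Each pair without overlap holds Adra2a or Adra1b, so these pairs are not independent of one another or of the differences given above. Among single tested genes, 33.6% lay higher and 29.4% lower in CCI without overlap in CPM. The share over all pairs of genes was not counted.

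**Figure D3:**
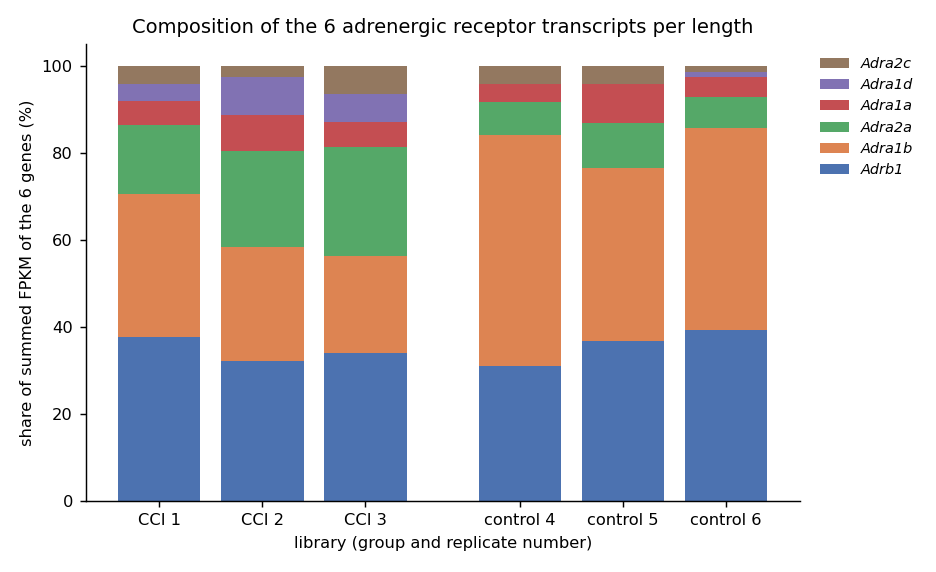
Share of each gene in the summed FPKM of the 6 adrenergic receptor genes (vertical axis, percent), by library with its group and replicate number (horizontal axis). Adra1b takes 22.3% to 32.8% in CCI and 39.8% to 53.2% in control, and Adra2a takes 15.8% to 25.1% in CCI and 6.92% to 10.3% in control. With Adra2b added to the sum, which is not plotted, Adra1b would take 7.18% to 9.82% in CCI and 6.49% to 8.28% in control.

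Another alpha-2 gene of the table and a further beta gene are given for scale. Adra2b, the alpha-2B gene, was far more abundant than any of the 6, at 16.1, 16.2 and 12.5 FPKM in CCI and 25.4, 14.9 and 33.5 FPKM in control. Against it the 6 genes together had 6.88, 6.10 and 8.45 FPKM in CCI and 4.37, 3.92 and 5.43 FPKM in control. Adra2b fell by 1.28 ± 0.23 on the log2 scale (edgeR adjusted p = 0.00222), while Adra2a rose. In FPKM the groups of Adra2b overlapped, control replicate 5 lying within the CCI range. The beta-3 gene Adrb3 did not pass (0.80 ± 0.43, adjusted p = 0.143).

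By likeness of profile over the 6 libraries, the 2 genes closest to each tested member were sought among 11210 genes of at least 5 CPM on average, by Pearson correlation of log2 CPM. For Adra2a these were Srrt (r = 0.997) and Ppp1r10 (r = 0.996), and for Adra1b they were Mplkip (r = 0.998) and Cdh4 (r = 0.994). The value of r does not depend on the size of a change. Srrt rose by 0.39 (edgeR adjusted p = 0.0721, not passing) and Ppp1r10 by 0.52 (adjusted p = 0.0350), against 1.43 for Adra2a. Mplkip fell by 0.61 and Cdh4 by 0.63, against 0.74 for Adra1b. Adra1a was closest to Ube2q1 (r = 0.982) and Nthl1 (r = 0.972), and Adrb1 to Sertad4 (r = 0.935) and Dus4l (r = 0.924). Leaving out any 1 library, r stayed at 0.874 or above in these 8 pairs. These are the highest r found among 11210 genes over only 6 points, and are given as a description.

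The next lists hold the genes around the receptors. They were drawn up with earlier results of these data known, and their counts stand beside the 27.0% of all tested genes that rose and the 25.3% that fell. On the ligand side, 11 genes of noradrenaline synthesis, transport and breakdown were listed and 8 tested, of which none rose, 4 fell and 4 did not pass (median log2 fold change -1.21, beside 0.06 over all tested genes). The 2 monoamine oxidase genes fell, Maoa at 46.8 ± 8.78 CPM in CCI and 134 ± 17.8 CPM in control (-1.52 ± 0.19, adjusted p = 0.000492) and Maob by 1.87 ± 0.26 (adjusted p = 0.000702). The vesicular monoamine transporter gene Slc18a2 fell by 1.66 ± 0.37 (adjusted p = 0.00592), by 1.05 without control replicate 5 and by 0.99 on library totals. The extraneuronal transporter gene Slc22a3 fell by 1.43 ± 0.43 (adjusted p = 0.0228). Slc22a3 lost its call on library totals, on FPKM, and with 1 library left out, be it replicate 1 or 3 of CCI or 4 or 6 of control (adjusted p 0.0550 to 0.180).

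Transcripts that define noradrenergic neurons were at or near 0. Dbh, the enzyme gene that makes noradrenaline, had 1, 0 and 1 counts in CCI and 3, 0 and 3 counts in control. The noradrenaline transporter gene Slc6a2 had 1 count in 1 CCI library and none in control, and Phox2a, a transcription factor gene of noradrenergic neurons, had 0 counts in all 6 libraries.

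Of 11 tested genes of the Gq branch, which serves the alpha-1 receptors, 3 rose, 2 fell and 6 did not pass (median 0.11). Prkca, a protein kinase C gene, rose by 1.30 ± 0.43 (adjusted p = 0.0337), and without CCI replicate 3 it was at 0.51 (adjusted p = 0.0864). It passed in 11 of 17 alternatives, and also missed the threshold by limma-voom and without control replicate 4 or 6 (adjusted p 0.0547 to 0.0860). Plcb1 and Itpr2, of phospholipase C and of a calcium release channel, rose by 1.15 ± 0.21 and 1.29 ± 0.19. Gnaq, the Gq subunit gene itself, fell by 1.11 ± 0.18 and the kinase gene Prkcd by 1.92 ± 0.35. With length, GC content and mean expression in the offsets, Itpr2 was at 0.20 (adjusted p = 0.402). Gnaq was at -0.36 in that analysis and did not pass (adjusted p = 0.139), nor did it on library totals or FPKM (adjusted p 0.0536 to 0.0568).

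In the Gi and Go branch, which serves the alpha-2 receptors, 1 of 9 genes rose, 3 fell and 5 did not pass (median -0.21). Gnai1 was at 77.4 ± 16.9 CPM in CCI and 336 ± 78.1 CPM in control, and Gnai3 at 37.6 ± 3.93 CPM in CCI and 153 ± 19.3 CPM in control. These inhibitory G protein genes fell by 2.12 ± 0.24 (adjusted p = 0.000314) and 2.02 ± 0.17 (adjusted p = 0.000181), and passed in all 17 alternatives. Gnaz fell by 0.83 ± 0.19 (-0.21 on library totals, adjusted p = 0.252). Kcnj6, of a potassium channel opened by these G proteins, rose by 1.55 ± 0.26 (adjusted p = 0.00167).

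In the Gs branch, which serves the beta-1 receptor, 3 of 16 genes rose, 3 fell and 10 did not pass (median 0.16). The adenylyl cyclase genes Adcy6, Adcy2 and Adcy7 rose by 2.07 ± 0.28, 0.81 ± 0.20 and 1.21 ± 0.36. The protein kinase A genes Prkar2b, Prkar1a and Prkaca fell by 1.49 ± 0.19, 0.97 ± 0.21 and 1.04 ± 0.24. Adcy7 lost its call when CCI replicate 1, CCI replicate 2 or control replicate 6 was left out (adjusted p 0.0713 to 0.0847), and Prkar1a and Prkaca did not pass on FPKM or library totals (adjusted p 0.0922 to 0.176). Among 11 genes of receptor desensitisation and G protein shut-off 2 rose, 4 fell and 5 did not pass (median -0.14). The receptor kinase genes Grk3 and Grk4 rose by 0.66 ± 0.14 and 1.26 ± 0.30. The genes Rgs4, Rgs7 and Rgs8, whose products speed the shut-off of G proteins, fell by 2.06 ± 0.19, 1.27 ± 0.18 and 0.43 ± 0.15, and the beta-arrestin gene Arrb2 by 1.64 ± 0.35. Rgs8 passed in 9 of 17 alternatives. It turned positive on library totals and on FPKM, at 0.14 to 0.16, and lost its call with upper quartile scaling, with the filter of 10 CPM, and when CCI replicate 1, CCI replicate 2 or control replicate 6 was dropped (adjusted p 0.116 to 0.269). Arrb2 did not pass on library totals or FPKM (adjusted p 0.0549 to 0.0770).

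After offsets for length and GC content Grk3 was at 0.25 (adjusted p = 0.164), Adcy7 at 0.79 (adjusted p = 0.109) and Prkca at 1.02 (adjusted p = 0.0759). Over all 5 pathway lists 9 genes rose and 16 fell of 55 tested. On library totals alone 25 rose and 9 fell, and without control replicate 5 it was 15 and 21.

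**Figure D4:**
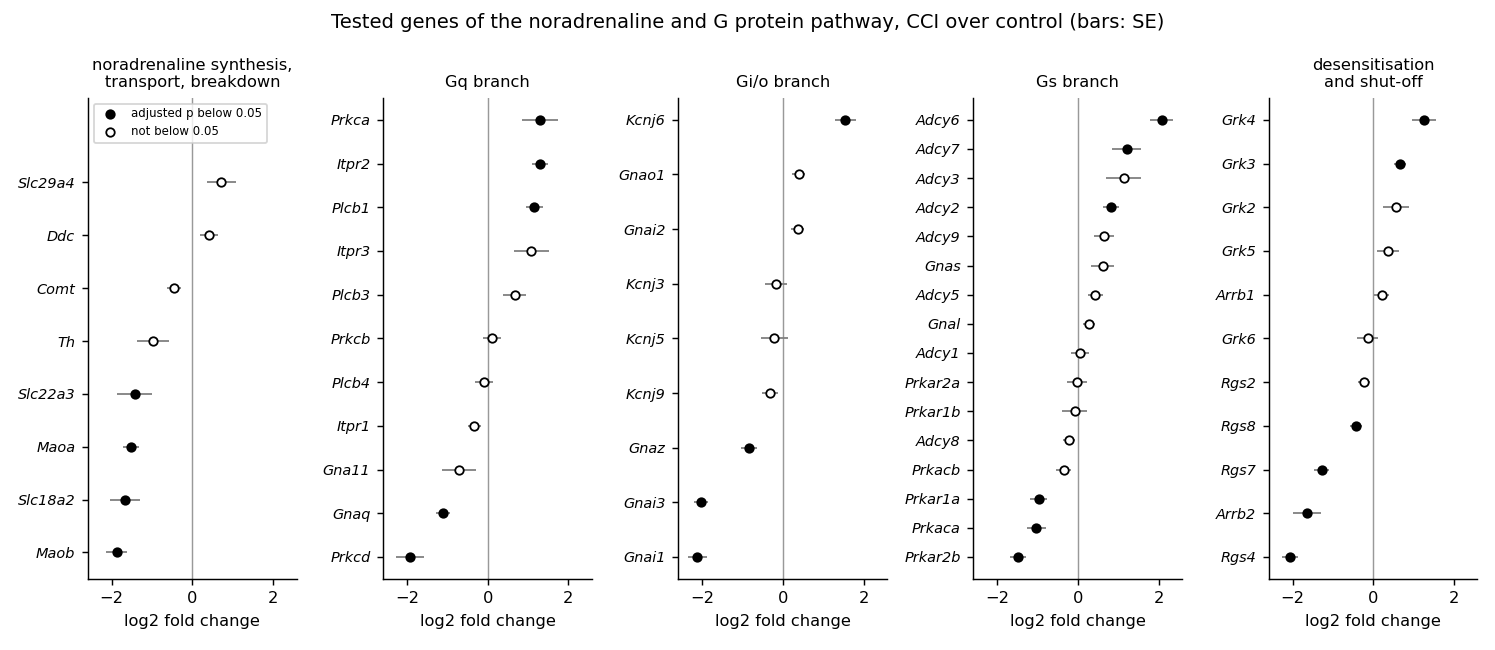
Log2 fold change, CCI over control, with its SE (horizontal axes) for each tested gene (vertical axes) of the 5 pathway lists. Filled points passed an adjusted p of 0.05. The inhibitory G protein genes Gnai1 and Gnai3 and the regulator Rgs4 lie near -2, and Adcy6 and Kcnj6 lie at 2.07 and 1.55.

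Markers of several cell types moved with the groups in the same libraries. The counts of marker genes stand beside the 27.0% of all tested genes that rose and the 25.3% that fell. Summed over 12 genes listed for the midline thalamus the level was 1448 to 2270 CPM in CCI and 5106 to 8694 CPM in control. Of the 12, 7 fell, namely Tcf7l2, Slc17a6, Calb2, Necab1, Gbx2, Lhx9 and Pou4f1. Pou4f1, although counted in this list and not in the habenula list, is a gene of the medial habenula and does not stand for the thalamus alone. It was at 162, 83.7 and 60.9 CPM in CCI and 389, 1054 and 174 CPM in control. Drd2, Nts, Col12a1, Hcrtr1 and Cck did not pass, and the median log2 fold change of the list was -0.90. Tcf7l2, the largest of the sum in each library, averaged 717 CPM in CCI and 2837 CPM in control. Of 9 tested GABAergic neuron genes 6 rose, with sums of 123 to 438 CPM in CCI and 67.6 to 122 CPM in control. Of 10 tested hippocampal and cortical excitatory neuron genes 6 rose, with sums of 186 to 221 CPM in CCI and 74.7 to 97.9 CPM in control. Of 9 genes listed for oligodendrocyte precursors 7 rose, with sums of 522 to 663 CPM in CCI and 153 to 181 CPM in control. Bcas1, the largest of the sum in each library, averaged 345 CPM in CCI and 67.35 CPM in control. Pdgfra, at 28.6 CPM in CCI and 28.01 CPM in control, and Olig2 did not pass. The 12 astrocyte genes, 3 higher and 4 lower, summed to 3878 to 4608 CPM in CCI and 8680 to 11290 CPM in control. Aldoc alone, singled out after its values were seen, averaged 1117 CPM in CCI and 5333 CPM in control. Gjb6, Gja1 and Ntsr2 also fell, while Gfap, Aqp4 and Mlc1 rose, and the median log2 fold change of the astrocyte list was -0.20. For mural cells of vessels, which also bear alpha-1 receptors, 3 of 8 tested genes rose and 2 fell. The mural list summed to 197 to 240 CPM in CCI and 261 to 351 CPM in control, with Tagln at 0 counts in control. Rgs5, the largest of that sum in each library, fell and averaged 110 CPM in CCI and 225 CPM in control. Acta2 also fell, while Pdgfrb, Abcc9 and Notch3 rose, and the median log2 fold change of the mural list was 0.27. In the 7 other marker lists, 8 of 10 oligodendrocyte genes rose, 1 of 8 striatal genes rose, 2 of 9 habenula genes fell, and 1 of 2 tested genes of noradrenergic and other brainstem catecholamine neurons fell. Of 8 microglial genes 1 rose and 1 fell, of 8 endothelial genes 3 rose and 1 fell, and of 7 choroid plexus genes 2 rose. The part of these cell types in the differences of Adra1b, Adra1d and Adra2a was not tested.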

How the data were processed

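RNA of the paraventricular thalamus was sequenced in 3 CCI and 3 control libraries. Per the labels' protocols, poly-A RNA was copied from random primers. Per the submitters' processing notes, the build was GRCm39 and the tools were StringTie 2.2.1, HTSeq 0.9.1, HISAT2 2.1.0, fastp 0.22.0 and DESeq 1.38.3, with no roles given. The strand setting is not given in the sources used here. The deposited table holds a raw read count per gene and library and the authors' FPKM, which equals count over gene length over column total in the file. Length is given in bp by the authors in the same table.

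The test of the counts was that of edgeR 4.0.16 (R 4.3.3), after filterByExpr (minimum count 10) and TMM scaling, across all 14259 genes passing the filter, with Benjamini-Hochberg adjustment. An SE was obtained from the log2 fold change and its F statistic. Alternatives used DESeq2 1.42.0, limma 3.58.1 and offsets from splines (4 degrees of freedom) on length, GC content (longest GENCODE M21 transcript, for 99.9% of tested genes) and mean expression. Ratios within a library were compared by exact permutation (scipy 1.17.1), and counting intervals are exact binomial at 95%. The main edgeR fit, but none of the alternatives, was tested on simulated counts.

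The 6 genes and all lists were chosen with earlier results of these data known. Named are all 6 genes, the pathway genes past the threshold (among them the 4 with the smallest p of each list) and the 2 genes most alike in profile to each tested member, leaving out symbols of Gm and digits, Rik and accession form. Counts for 13 marker lists are given in the text.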

Additional observations from a re-analysis of the deposited data

How the results depend on the processing

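No paired analysis was possible because the labels number the CCI libraries 1 to 3 and the control libraries 4 to 6, with no number in common. Adra2a kept its direction in all 16 alternatives and its call in 14, at adjusted p 0.00163 to 0.324. Adra1b kept its direction in 16 and its call in 7. The number of adrenergic receptor genes that rose was 2 with no filter and by the DESeq2 Wald test, where Adra1d was also tested, and 0 with offsets for length and GC content, alone or with mean expression. Leaving out 1 library it was 1 to 2. The number that fell was 0 with upper quartile scaling, on library totals alone and on log2(FPKM + 1) and log2(FPKM + 0.1), and 0 to 1 with 1 library left out. The filter of 10 CPM in 3 libraries left none of the 6 to test. The sign of Adrb1 turned with upper quartile scaling (0.21), library totals (0.59), limma-voom (0.00, rounded from 0.003), log2(FPKM + 1) (0.40) and log2(FPKM + 0.1) (0.57), and leaving out 1 library it ranged from -0.23 to 0.16. Adra1a turned with offsets for length and GC content (-0.25) and with mean expression added (-0.85), and ranged from -0.13 to 0.58 without 1 library. Prkar1a was at 0.21 with mean expression in the offsets, and Rgs8 at 0.16 on library totals, 0.14 on log2(FPKM + 1) and 0.16 on log2(FPKM + 0.1). The cause of these turns was not tested. Over all genes, 6477 rose and 1386 fell on library totals, 6785 and 1374 on log2(FPKM + 1) and 6632 and 1345 on log2(FPKM + 0.1), and 2881 to 4560 rose and 2630 to 4415 fell without 1 library. Calls were 51.6% higher in the main analysis, 82.4% on library totals, 64.6% with upper quartile scaling and 83.2% and 83.1% on the FPKM scales. Of the pathway genes 19 rose with upper quartile scaling, 25 rose and 9 fell on library totals and both FPKM scales, 25 fell with offsets for length and GC content, and 7 to 15 rose and 14 to 21 fell without 1 library. With Adra2b added to the sum of FPKM, chosen after seeing the data, the difference in share between CCI and control turned from negative to positive for Adra1b (1.13 percentage points) and Adrb1 (5.36 percentage points), and for Adra2a it was 5.56 percentage points. Adra1d and Adra2c rest on 26 and 52 counts in all, which limits what can be seen of them.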
